A study of Homo sapiens with 6 samples.

Results

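The regulators of G protein signalling (RGS proteins) described here are 10 genes: RGS2, RGS3, RGS4, RGS5, RGS7, RGS10, RGS12, RGS16, RGS17 and RGS20. They were taken by gene symbol from a count table of 60843 genes, where they filled 11 rows because RGS5 stands for 2 gene identifiers. The table held bulk RNA sequencing of wild-type BJ cells, an established line of human foreskin fibroblasts, with 2 libraries at each of 3 days. Day 0 cells grew in DMEM with 10% serum. Day 2 cells, labelled as induced neurons, had been kept in a neuronal induction medium with 10 µM forskolin, a plant diterpene that activates adenylyl cyclases and so raises cyclic AMP. Day 5 cells, labelled likewise, had then been moved to a neuronal maturation medium with 10 µM forskolin. No culture carried through the same media without forskolin was analysed here, so time, medium and drug cannot be told apart. Whether both libraries of 1 day stem from different dishes is not stated, and the spread that the p-values rest on may therefore be technical.

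RGS proteins speed the hydrolysis of GTP by the alpha subunits of heterotrimeric G proteins, and so shorten the signal that an activated receptor sends. Their shared RGS domain is flanked by different regions that sort the family into subfamilies. The R4 proteins (RGS2, RGS3, RGS4, RGS5 and RGS16) are mostly small and act on Gi or Gq alpha subunits, with RGS2 known for its preference for Gq. The R12 proteins include the small RGS10 and the large scaffold RGS12, and the RZ proteins include RGS17 and RGS20. RGS7 is an R7 protein that is stable only when bound to the beta subunit encoded by GNB5. Several of these genes are themselves regulated by the pathways that they dampen, and RGS2 is known as a gene induced by cyclic AMP in a number of cell types. RGS5 is widely used as a marker of pericytes, the contractile cells around capillaries.

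The upstream stretches of the 5 genes that rose at day 2 are shown because forskolin acts through cyclic AMP, whose best known DNA element is the cyclic AMP response element TGACGTCA. The sequences are RefSeq's on GRCh38.p14, read 5′ to 3′ on the gene's strand, and they are limited to bases outside annotated exons. The stretches of RGS2 (chr1:192808789-192809038, plus strand), RGS10 (chr10:119542720-119542969, minus strand) and RGS17 (chr6:153131283-153131532, minus strand) are the 250 bases just before a RefSeq start. That of RGS4 (chr1:163068621-163068774, plus strand) ends 97 bases before such a start, and that of RGS5 (chr1:163203114-163203166, minus strand) ends 198 bases before one. Capitals mark CGTCA, the reverse complement of TGACG, the shorter core of the element.

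RGS2: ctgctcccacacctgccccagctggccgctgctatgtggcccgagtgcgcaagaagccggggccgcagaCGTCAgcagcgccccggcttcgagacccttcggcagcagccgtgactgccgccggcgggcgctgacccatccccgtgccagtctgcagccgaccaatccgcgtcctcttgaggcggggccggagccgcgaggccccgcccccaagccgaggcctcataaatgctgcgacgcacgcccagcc

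RGS10: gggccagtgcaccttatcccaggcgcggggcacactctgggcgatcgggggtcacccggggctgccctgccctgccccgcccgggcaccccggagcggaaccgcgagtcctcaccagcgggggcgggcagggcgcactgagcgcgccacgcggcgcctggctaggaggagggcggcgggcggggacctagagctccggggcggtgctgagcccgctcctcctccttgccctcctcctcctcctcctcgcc

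RGS17: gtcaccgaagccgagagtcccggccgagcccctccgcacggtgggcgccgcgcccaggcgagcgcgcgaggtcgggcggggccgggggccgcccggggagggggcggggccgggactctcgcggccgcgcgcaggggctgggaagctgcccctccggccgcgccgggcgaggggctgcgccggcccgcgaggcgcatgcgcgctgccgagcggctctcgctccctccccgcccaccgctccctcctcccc

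RGS4: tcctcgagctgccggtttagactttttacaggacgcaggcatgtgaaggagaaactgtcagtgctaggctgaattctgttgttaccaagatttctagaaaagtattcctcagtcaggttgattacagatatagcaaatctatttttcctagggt

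RGS5: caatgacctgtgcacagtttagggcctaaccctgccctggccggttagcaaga

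RefSeq gave promoter windows for 9 of the 10 members, 25 windows in all, and both strands of the 250 bases before each start were searched. The full element TGACGTCA was in 0 of the 25 windows, against 1.65% of the 35116 windows of all genes. The core TGACG, which also lies inside the full element, was in 5 of the 25 windows (20%), those of RGS2, RGS3, RGS4 and RGS12, against 21.2% of all windows. The RGS4 windows that held the core overlap each other and share the same site, so windows of a gene are not separate sites. Counted by window, the core was about as frequent for the members as for all genes. The printed stretches of RGS4, RGS5, RGS10 and RGS17 did not hold the core. The reads do not tell which start was in use.

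Library totals ran from 17599457 to 27941895 counts, and the day 5 libraries were the shallowest. Levels are given as counts per 1e6 counts (CPM), scaled between libraries by TMM factors, and 3 counts corresponded to 0.103 to 0.180 CPM. Differences are log2 fold changes with standard errors (SE) from edgeR's quasi-likelihood test on all 6 libraries, adjusted over the 16327 genes tested by the Benjamini-Hochberg method, and a gene was called at an adjusted p under 0.05. All 12 fibroblast markers had counts on every day, and their summed level was 25076 and 25479 CPM in the day 0 libraries, 23650 and 23917 CPM in those of day 2, and 35352 and 35800 CPM in those of day 5. That sum was carried largely by collagens, FN1 and VIM. COL1A2 averaged 5049, 6197 and 14314 CPM, FN1 6380, 7683 and 6149 CPM and VIM 4847, 5040 and 1465 CPM at days 0, 2 and 5. Between day 5 and day 0, 4 of the 12 rose and 8 fell. Those that fell included S100A4 (16.7-fold), DCN (5.16-fold), THY1 (4.10-fold) and VIM (3.31-fold). Of 14 neuron markers, 10 stayed under 1 CPM in each library, STMN2 and ELAVL4 had no counts, and 5 were tested, with 1 rising and 2 falling between day 5 and day 0. The riser was SNAP25, with 5.88, 4.67 and 18.3 CPM at days 0, 2 and 5, and SYN1, with 1.69, 2.98 and 1.54 CPM, was called higher at day 2 against day 0. TUBB3 averaged 226, 140 and 87.4 CPM and MAP2 averaged 12.9, 4.43 and 0.834 CPM at days 0, 2 and 5, while RBFOX3 and DCX stayed under 1 CPM. COL1A1 averaged 4281, 1075 and 3723 CPM and PDGFRA 334, 570 and 2639 CPM over the same days. In bulk RNA, fewer cells of a type and less RNA per cell cannot be told apart.

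Between day 2 and day 0, RGS2, RGS4, RGS5, RGS10 and RGS17 rose, RGS20 fell, and RGS3 and RGS12 did not pass the test. Thus 5 of the 8 members tested were called higher and 1 lower, where 33.4% of all tested genes were called higher and 33.4% lower (66.8% in either direction). A call alone was therefore common. All 5 risers also passed a test for a change above 2-fold (edgeR's glmTreat), which 6.99% of tested genes passed upward and 5.54% downward (12.5% in all). The median log2 fold change of the members was 1.84, against 0.00 over all tested genes. Members were chosen with earlier results of these data known, so shares and medians here and in the next comparisons are description only.

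Between day 5 and day 0, RGS2, RGS4, RGS5, RGS12 and RGS17 were called higher and RGS3, RGS10 and RGS20 lower. These are 5 and 3 of the 8 members tested, where 35.8% of all tested genes were called higher and 34.1% lower (69.9% in either direction). Above 2-fold, RGS4, RGS5 and RGS17 rose and RGS20 fell, a test that 9.74% of tested genes passed upward and 10.3% downward (20.1% in all). The members' median log2 fold change was 0.59, against 0.04 over all tested genes.

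Between day 5 and day 2, RGS4, RGS5 and RGS12 were called higher and RGS2, RGS3, RGS10 and RGS20 lower. These are 3 and 4 of the 8 members, where 32.1% of all tested genes were called higher and 33.7% lower (65.8% in either direction). The changes of RGS4 and RGS5 upward and of RGS2, RGS10 and RGS20 downward passed the 2-fold test, as did 6.41% of tested genes upward and 7.96% downward (14.4% in all). The median of the members was -0.34 on the log2 scale, against 0.01 over all tested genes. The 3 comparisons share libraries, so their counts are not independent of each other. Scaling by library totals alone lowered the median gene by 0.18 at day 2 and by 0.21 at day 5 against day 0 on the log2 scale, and the share of calls that were higher was then 38.1% in place of 50.0% at day 2 and 39.0% in place of 51.2% at day 5.

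**Figure D1:**
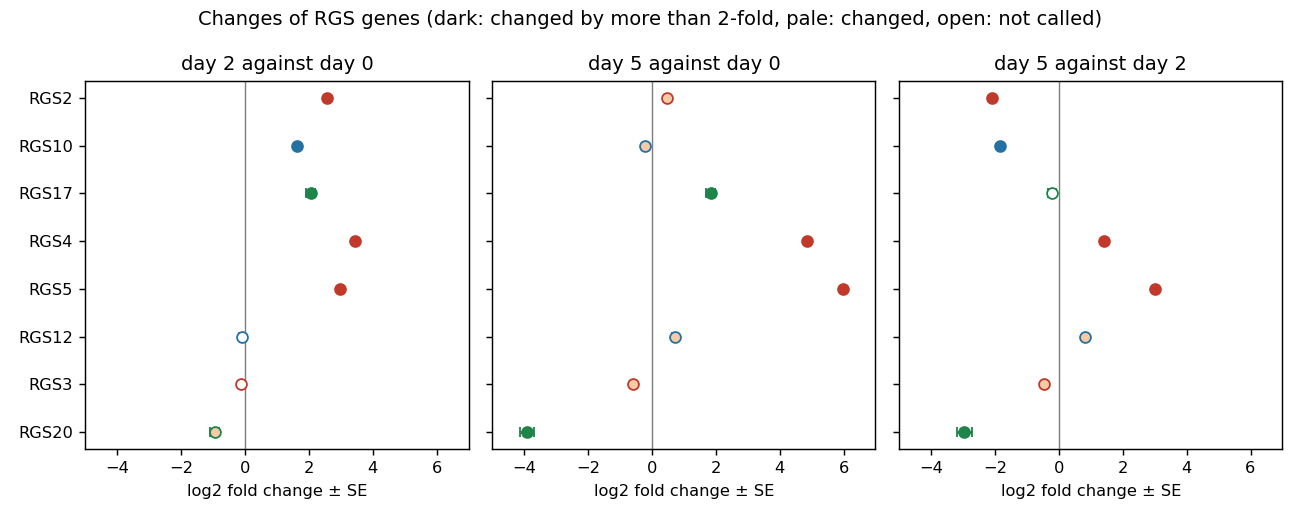
Log2 fold change of each tested RGS member between day 2 and day 0, day 5 and day 0, and day 5 and day 2, with the standard error of edgeR's fit as the error bar (2 libraries per day). Dark points passed the 2-fold test, pale points were called only at an adjusted p under 0.05, and open points were not called. RGS4 and RGS5 lie above 0 in all 3 comparisons, RGS3 and RGS20 lie below 0 in all 3, and RGS2 and RGS10 lie above 0 between day 2 and day 0 and below 0 between day 5 and day 2.

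All 8 of these members had at least 14 counts in every library, so none was tested only because of the day on which it was high. The other 3 rows were a further RGS5 identifier, which was tested but not called in any comparison, and RGS7 and RGS16, which had too few counts to be tested. Across the 9 rows tested, the libraries of the 2 days did not overlap for 8 between day 2 and day 0, where 82.7% of all tested genes did not overlap. They did not overlap for 9 of 9 in the other comparisons, where the share of all tested genes was 84.5% between day 5 and day 0 and 82.4% between day 5 and day 2.

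RGS5 (ENSG00000143248) showed the largest rise among the members between day 5 and day 0, while RGS4 rose more between day 2 and day 0. The gene lies on chromosome 1 from 163111121 to 163321791 on the minus strand (GRCh38, GENCODE v29). It stood at 6.78 and 6.59 CPM in the day 0 libraries, 51.1 and 53.5 CPM in those of day 2, and 428 and 422 CPM in those of day 5. Each day lay wholly above the one before it. Between day 2 and day 0 it rose by 2.97 ± 0.06 on the log2 scale (SE), 7.83-fold, with an edgeR adjusted p of 9.4e-17. Between day 5 and day 0 the log2 fold change was 5.99 ± 0.05, 63.6-fold, with an edgeR adjusted p of 1.6e-22. The second step, day 5 against day 2, was 3.02 ± 0.04 on the log2 scale, 8.12-fold (edgeR adjusted p = 3.3e-20).

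Markers of pericytes moved both ways while RGS5 rose. Of 10 such markers, 8 were tested: 1 rose and 5 fell between day 2 and day 0, 2 rose and 4 fell between day 5 and day 0, and 4 rose and 2 fell between day 5 and day 2 (median log2 fold change 0.46). The last 4 included KCNJ8, at 2.56, 0.565 and 3.85 CPM on days 0, 2 and 5, and NDUFA4L2, at 0.666, 0.920 and 2.36 CPM. When a variation of at least 20% between libraries was assumed, the counts of markers higher and lower in these comparisons were 0 and 3, 1 and 2, and 3 and 2. The summed level of the 10 markers was 1827 and 1877 CPM in the day 0 libraries, 1332 and 1386 CPM in those of day 2, and 1719 and 1779 CPM in those of day 5. COX4I2 had no counts and HIGD1B stayed under 1 CPM in each library, while MCAM, a cell adhesion molecule of pericytes, averaged 378, 133 and 63.3 CPM at days 0, 2 and 5. PDGFRB, counted here with the fibroblast markers and not in this list, averaged 228, 151 and 470 CPM over the same days. It was called lower between day 2 and day 0, and higher between day 5 and day 0 (2.06-fold) and between day 5 and day 2 (3.11-fold). The summed level of 8 smooth muscle markers was 1948 and 1955 CPM in the day 0 libraries, 791 and 799 CPM in those of day 2, and 194 and 194 CPM in those of day 5. Of these 8, 1 was called higher and 6 lower between day 5 and day 0, or 1 and 4 with a variation of at least 20%. The part of such cells in the RGS5 result was not tested.

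The further RGS5 identifier (ENSG00000232995) spans 163244505 to 163321894 of chromosome 1 on the same strand, and GENCODE types it as antisense, not as protein-coding. It overlaps the gene just described, so how reads were split between them is uncertain. It held 0.197 and 0.412 CPM in the day 0 libraries, 0.291 and 0.112 CPM in those of day 2, and 0.479 and 0.600 CPM in those of day 5. Its log2 fold changes were -0.63 ± 0.76, 0.80 ± 0.69 and 1.43 ± 0.74 for day 2 against day 0, day 5 against day 0 and day 5 against day 2, with edgeR adjusted p of 0.481, 0.313 and 0.103.

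RGS4, an R4 protein known mainly from neurons and heart, lies next to RGS5, 34319 bases away on the plus strand (chromosome 1, 163068775 to 163076802). Its levels were 5.60 and 6.94 CPM in the day 0 libraries, 68.4 and 69.4 CPM in those of day 2, and 181 and 187 CPM in those of day 5, so the order of the days was that of RGS5. RGS4 rose by 3.45 ± 0.07 on the log2 scale at day 2 (10.9-fold, edgeR adjusted p = 1.1e-16) and by 4.87 ± 0.07 at day 5 (29.2-fold, edgeR adjusted p = 1.3e-19), each against day 0. From day 2 to day 5 the change was smaller than that of RGS5, at 1.42 ± 0.05 on the log2 scale (2.67-fold, edgeR adjusted p = 3.7e-14). The test of one gene's change against the other's was not made.

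The nearest protein-coding gene on either side of the pair was low or had no counts. NUF2, a kinetochore gene, overlaps RGS5 on the opposite strand and averaged 1.50, 0.0602 and 1.04 CPM at days 0, 2 and 5. Without a stated strand setting, its reads cannot be told apart from those of RGS5 where they overlap. CCDC190, on the other side of RGS4, had no counts in any library.

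RGS2 was highest at day 2. This Gq-directed member, on chromosome 1 from 192809039 to 192812283 (plus strand), stood at 28.5 and 26.4 CPM in the day 0 libraries, 161 and 163 CPM in those of day 2, and 37.6 and 38.2 CPM in those of day 5. Its rise at day 2 was 2.56 ± 0.05 on the log2 scale, 5.91-fold over day 0 (edgeR adjusted p = 1.9e-17). By day 5 it had fallen to 4.26-fold below day 2, a log2 change of -2.09 ± 0.05 (edgeR adjusted p = 3.3e-16), and both day 5 libraries were still above both day 0 libraries. That remaining difference, 0.47 ± 0.06 on the log2 scale, had an edgeR adjusted p of 2.2e-06, and the call was lost when a variation of at least 20% between libraries was assumed (edgeR adjusted p = 0.202).

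RGS3, a longer R4 member (chromosome 9, 113444731 to 113597743, plus strand), fell late and little. Its levels were 61.9 and 62.1 CPM in the day 0 libraries, 56.4 and 57.0 CPM in those of day 2, and 38.1 and 44.4 CPM in those of day 5. The day 2 libraries lay below the day 0 libraries by 0.13 ± 0.06 on the log2 scale, which missed the threshold (edgeR adjusted p = 0.0598) but was called in several other settings, library totals among them (edgeR adjusted p = 0.00013). Day 5 was lower than day 0 by a log2 change of -0.58 ± 0.06 (edgeR adjusted p = 2.8e-07) and lower than day 2 by one of -0.46 ± 0.06 (edgeR adjusted p = 7.8e-06). Both calls were lost with an assumed variation of at least 20% (edgeR adjusted p = 0.0973 against day 0 and 0.227 against day 2).

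RGS16, an R4 gene on chromosome 1 from 182598623 to 182604408 (minus strand), was at or under the detection floor. It had no counts in either day 0 library, 0 and 2 counts at day 2, and 1 and 0 counts at day 5. No fold change is given for it.

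**Figure D2:**
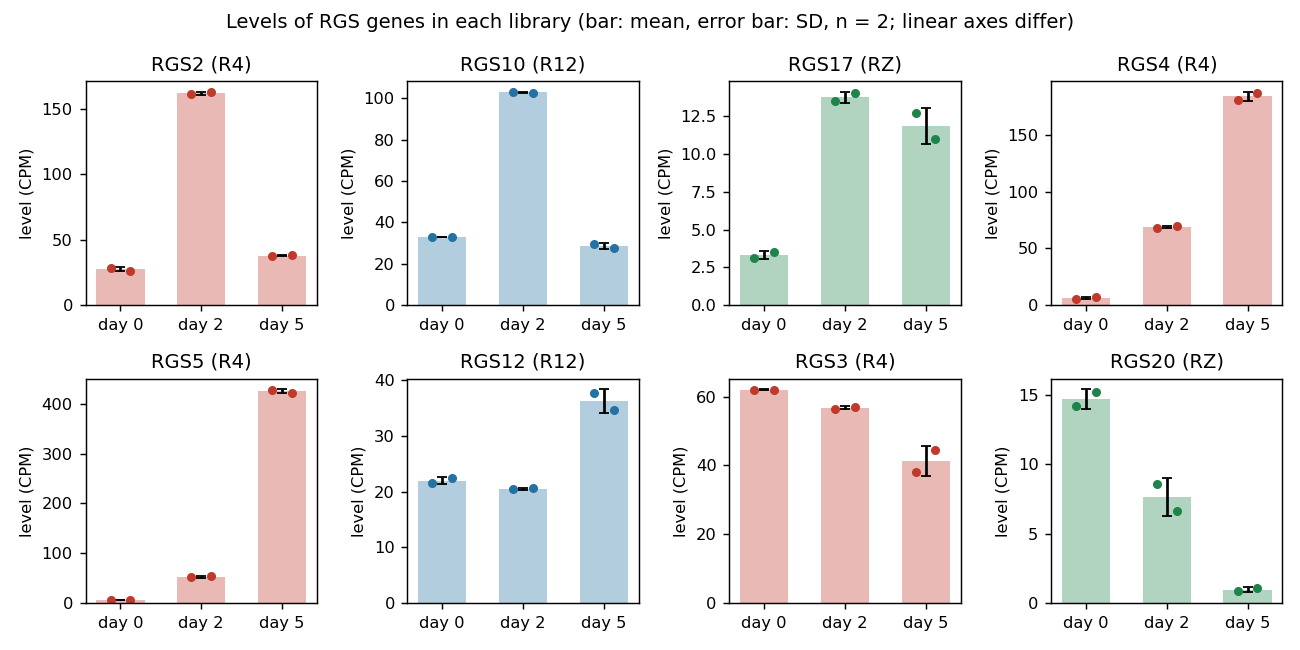
Level of each of the 8 tested RGS members, in CPM on linear axes that differ between panels, at days 0, 2 and 5. Points are single libraries, bars their mean and error bars the SD (n = 2), and colours mark the subfamily. RGS5 climbs from 6.69 CPM at day 0 to 425 CPM at day 5 on average, RGS2 and RGS10 are highest at day 2, and RGS20 is near 1 CPM at day 5.

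RGS10 shared the day 2 maximum of RGS2. This small R12 protein, which acts on Gi alpha subunits and is best known from microglia and platelets, is encoded on chromosome 10 from 119499828 to 119542708 (minus strand). It stood at 33.1 and 33.1 CPM in the day 0 libraries, 103 and 103 CPM in those of day 2, and 29.8 and 27.5 CPM in those of day 5. The rise at day 2 was 1.64 ± 0.05 on the log2 scale, 3.11-fold (edgeR adjusted p = 1.5e-14), and the following fall, day 5 against day 2, was -1.85 ± 0.06 (3.59-fold, edgeR adjusted p = 9.3e-15). Day 5 ended slightly below day 0, with a log2 change of -0.21 ± 0.06 and an edgeR adjusted p of 0.0073. This call was lost without the second day 5 library (edgeR adjusted p = 0.0960) and with an assumed variation of at least 20% (edgeR adjusted p = 0.611).

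GRK5, which encodes a receptor kinase that also carries an RGS homology domain, is 40086 bases from RGS10 on the opposite strand. It averaged 99.2, 307 and 497 CPM at days 0, 2 and 5, and unlike RGS10 it was still called higher between day 5 and day 2, by 0.69 ± 0.03 on the log2 scale (edgeR adjusted p = 1.2e-13). TIAL1, on the other side, averaged 39.7, 45.6 and 54.7 CPM.

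RGS12, the scaffold of the R12 group with binding domains for Ras and for G alpha subunits beside its RGS domain, was highest at day 5. The gene (chromosome 4, 3293028 to 3439913, plus strand) stood at 21.5 and 22.5 CPM in the day 0 libraries, 20.4 and 20.6 CPM in those of day 2, and 37.7 and 34.6 CPM in those of day 5. The day 2 and day 0 libraries differed by -0.10 ± 0.08 on the log2 scale (edgeR adjusted p = 0.264), a difference called lower with library totals as the scale (-0.29, edgeR adjusted p = 0.0038). Day 5 was higher than day 0 by 0.72 ± 0.08 (edgeR adjusted p = 2.6e-07) and higher than day 2 by 0.82 ± 0.08 (edgeR adjusted p = 6.8e-08), neither of which passed the 2-fold test.

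The 2 RZ genes among the members moved in opposite directions against day 0. RGS17 (chromosome 6, 153004459 to 153131249, minus strand) stood at 3.11 and 3.50 CPM in the day 0 libraries, 13.5 and 14.0 CPM in those of day 2, and 12.7 and 11.0 CPM in those of day 5. It rose by 2.05 ± 0.14 on the log2 scale at day 2 (4.14-fold, edgeR adjusted p = 7.3e-10) and by 1.83 ± 0.15 at day 5 (3.57-fold, edgeR adjusted p = 5.1e-09), each against day 0. Day 5 and day 2 differed by -0.22 ± 0.12, which missed the threshold (edgeR adjusted p = 0.139).

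RGS20, known for acting on the alpha subunit Gz, is on chromosome 8 from 53851808 to 53959303 (plus strand) and was the only member called lower in all 3 comparisons in the fit reported. Its levels were 14.2 and 15.2 CPM in the day 0 libraries, 8.61 and 6.65 CPM in those of day 2, and 0.839 and 1.09 CPM in those of day 5. The days did not overlap. Against day 0, it fell by 0.95 ± 0.14 on the log2 scale at day 2 (1.94-fold, edgeR adjusted p = 1.0e-05) and fell by 3.92 ± 0.21 at day 5 (15.1-fold, edgeR adjusted p = 2.0e-11). Day 5 lay below day 2 by a log2 change of -2.96 ± 0.23, 7.80-fold (edgeR adjusted p = 3.5e-09). GNAZ, the gene of Gz, was named after its values were seen: it stood at 0.709 and 0.893 CPM at day 0 and at 0.0416 and 0.0744 CPM at day 2, and had no counts at day 5.

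RGS7 (chromosome 1, 240775515 to 241357230, minus strand) had too few counts for the test. Its expected counts were 3.5 and 7 in the day 0 libraries, 0 and 1 in those of day 2, and 4.58 and 4 in those of day 5. Summed over libraries and scaled for depth, the ratio of day 2 to day 0 was 0.0973 (exact 95% interval 0.00226 to 0.669, from 1 and 11 counts), that of day 5 to day 0 was 1.27 (0.466 to 3.38, from 9 and 11 counts) and that of day 5 to day 2 was 13.1 (1.81 to 574, from 9 counts and 1). These intervals cover counting error only. GNB5, its obligate partner, averaged 31.8, 25.0 and 19.5 CPM at days 0, 2 and 5 and fell in each comparison, by 0.70 ± 0.08 on the log2 scale between day 5 and day 0 (edgeR adjusted p = 3.0e-07). It was the only one of 5 R7 partner genes with enough counts to be tested. With an assumed variation of at least 20%, its fall was called only between day 5 and day 0.

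Levels of different genes were set beside each other per kilobase, with the gene length that the deposited table gives. At day 0 the order was RGS10 (35.8 CPM per kilobase), RGS2 (20.3) and RGS3 (13.5), then RGS5 (7.16) and RGS20 (6.95), whose libraries overlapped, and then RGS12 (4.02), RGS4 (1.89) and RGS17 (0.426). The day 2 order was RGS2 (120 CPM per kilobase), RGS10 (112), RGS5 (56.0), RGS4 (20.8) and RGS3 (12.4), followed by RGS12 (3.74) and RGS20 (3.61), whose libraries overlapped, and RGS17 (1.77). By day 5 it was RGS5 (455 CPM per kilobase), RGS4 (55.6), RGS10 (31.1), RGS2 (28.1), RGS3 (8.99), RGS12 (6.61), RGS17 (1.53) and RGS20 (0.456). Other neighbours in these orders did not overlap between libraries. The orders turn on the lengths, as seen with the longest GENCODE transcript of each gene, a setting chosen after the data were seen. RGS10 (39.4% of the summed level of the RGS genes) then stood before RGS2 (39.0%) at day 2. On that day RGS5 (2.91%) stood below RGS4 (5.96%) and RGS3 (4.03%). At day 0, RGS5 (1.14%) stood below RGS20 (6.97%), RGS12 (3.97%) and RGS4 (1.65%).

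RGS5 thus moved to the first place. Of the summed per-kilobase level of the RGS genes in the table it held 6.76% at day 0, 16.0% at day 2 and 75.6% at day 5. RGS10 held 33.8, 31.9 and 5.16%, RGS2 held 19.2, 34.3 and 4.67%, and RGS3 held 12.7, 3.53 and 1.49% over the same days. The size of these shares turns on the length of RGS5, which the deposited table gives as 934 bases, while its longest GENCODE transcript has 5862. With the longest transcripts, RGS5 held 1.14, 2.91 and 33.9%, still the first at day 5, ahead of RGS4 at 22.8%. Without any length, also chosen after the data were seen, RGS5 held 3.27, 9.96 and 53.4% of the summed CPM, and RGS3 held the largest share at day 0 (30.3%). The summed level of day 5 stood above that of day 2 with the deposited lengths (602 against 350 CPM per kilobase) and without lengths (796 against 525 CPM), but below it with the longest transcripts (214 against 306 CPM per kilobase).

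**Figure D3:**
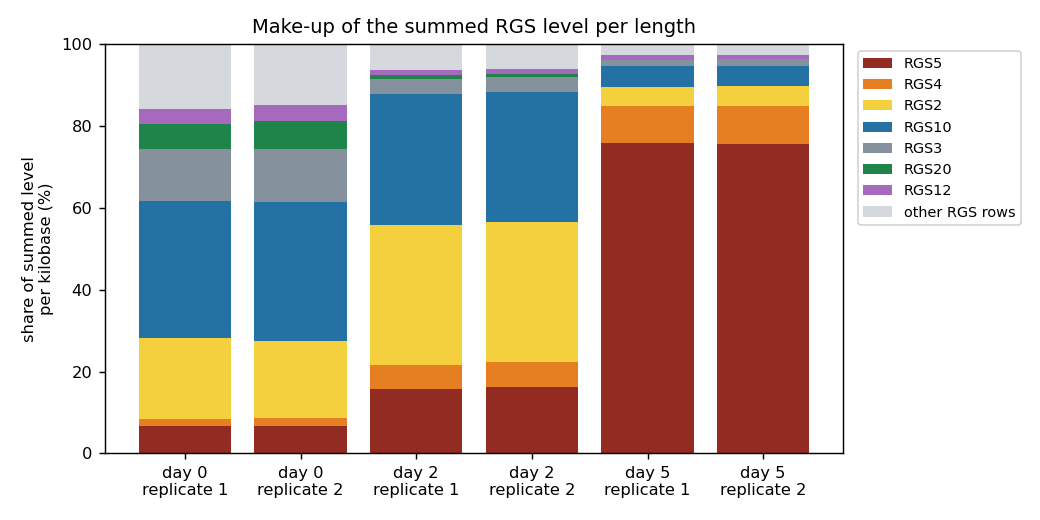
Share of the summed per-kilobase level of the RGS genes held by each member, in percent, with 1 stacked bar for each library and the gene lengths of the deposited table. On average RGS10 holds the largest share at day 0 (33.8%), RGS2 at day 2 (34.3%) and RGS5 at day 5 (75.6%).

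The genes whose pair of changes (day 2 and day 5, each against day 0) lay nearest to a member's were sought over the 6 libraries. The search started from the 11058 tested genes that averaged 5 CPM or more. It left out clone, LOC, antisense and long intergenic names and further identifiers of a symbol. Nearest to RGS5 was FGFR4, a fibroblast growth factor receptor, at a distance of 0.345 on the log2 scale, with 2.06, 18.4 and 108 CPM at days 0, 2 and 5, followed by KIF26B (0.560) and ADAMTS6 (0.583). RGS4 had COL4A6, a basement membrane collagen, as its nearest gene, at a distance of 0.269 and with 21.7, 198 and 607 CPM, then SCG2 (0.349) and FNDC3A (0.403). For RGS20 the nearest were FBLN5, an elastic fibre protein with 215, 113 and 14.9 CPM, at 0.0825, ANKRD29 (0.120) and LTBP2 (0.141). RGS17 lay nearest to RGCC (0.0390), CD46 (0.0696) and LMAN1 (0.0801). The distances are descriptions and carry no test.

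The lists that follow are to be read against all tested genes, of which 33.4% were called higher and 33.4% lower between day 2 and day 0, and 35.8% higher and 34.1% lower between day 5 and day 0. Where an assumed variation of at least 20% moved a list's count, that count is given too. Among the other RGS genes, 6 of 11 were tested. Between day 2 and day 0, 3 of them rose and 1 fell (median log2 fold change 0.56), whereas day 5 against day 0 gave 1 riser and 3 that fell (median -0.81). RGS18, a member known mainly from platelets and part of the chromosome 1 cluster of RGS genes that holds RGS2, averaged 0.553, 11.6 and 14.0 CPM at days 0, 2 and 5, a rise of 4.38 ± 0.20 on the log2 scale at day 2 and of 4.66 ± 0.20 at day 5, each against day 0 (edgeR adjusted p = 3.6e-12 and 1.1e-12). Of 8 blood markers, 6 stayed under 1 CPM in each library, PTPRC among them, while CD68 averaged 93.5, 128 and 47.1 CPM and CD14 averaged 3.94, 4.69 and 0.373 CPM. CD68 was called higher between day 2 and day 0, a call lost with a variation of at least 20%, and lower between day 5 and day 0. The part of blood cells in the RGS18 result was not tested. RGS9 averaged 6.91, 12.8 and 8.53 CPM, highest at day 2, and RGS19, an RZ-type member, averaged 13.9, 7.96 and 4.33 CPM. RGS13, the nearest RGS gene to RGS2 in that cluster, had at most a trace, with a mean of 0.0687 CPM at day 0 and no counts later.

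All 14 genes that carry an RGS homology domain outside the RGS family were tested, and 6 rose and 4 fell between day 2 and day 0 (median log2 fold change 0.20). At day 5 against day 0, 9 rose and 5 were not called (median 0.36), but with library totals as the scale 7 rose and 3 fell. With a variation of at least 20%, 3 were higher and 1 lower at day 2, and 3 were higher at day 5, each against day 0. ARHGEF12, which G12 and G13 alpha subunits activate, averaged 179, 303 and 260 CPM, and ARHGEF11, of the same kind, averaged 55.0, 39.7 and 75.6 CPM at days 0, 2 and 5.

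The list of 16 G alpha subunit genes takes in all classes, also subunits outside the Gi and Gq groups. Of these 16, 10 were tested, and 1 rose and 8 fell between day 5 and day 0 (median log2 fold change -0.39). Between day 2 and day 0, 5 rose and 4 fell (median 0.16). A variation of at least 20% left 1 higher and 4 lower for day 5 against day 0, and 1 higher and 1 lower for day 2 against day 0. GNAI1, an inhibitory alpha subunit, was highest at day 2, like RGS2 and RGS10, with 148, 324 and 49.0 CPM at days 0, 2 and 5. It rose by 1.13 ± 0.03 on the log2 scale at day 2 against day 0 and changed by -2.73 ± 0.04 at day 5 against day 2 (edgeR adjusted p = 4.4e-15 and 3.5e-19). GNAI2 averaged 796, 700 and 330 CPM, and GNA11, of the Gq group, averaged 154, 117 and 92.8 CPM.

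Of 16 G beta and gamma genes, 13 were tested, with 8 rising and 1 falling between day 2 and day 0 (median log2 fold change 0.49), or 5 rising and 3 falling with library totals as the scale. For day 5 against day 0 the counts were 6 and 4 (median 0.41). With a variation of at least 20% they were 4 and 0 for day 2 and 4 and 1 for day 5, each against day 0. GNG2 averaged 26.8, 43.5 and 108 CPM and GNB4 averaged 34.8, 78.1 and 92.4 CPM at days 0, 2 and 5.

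Effectors downstream of Gq, the branch that RGS2 dampens, were counted next. Of 9 phospholipase C, inositol trisphosphate receptor and protein kinase C genes, all tested, 1 rose and 8 fell between day 5 and day 0 (median log2 fold change -1.25), whereas 2 rose and 4 fell between day 2 and day 0 (median 0.04). With a variation of at least 20% these counts were 1 and 6, and 1 and 2. ITPR3, a calcium release channel, averaged 51.1, 53.1 and 6.21 CPM at days 0, 2 and 5, a log2 change of -3.04 ± 0.09 between day 5 and day 0 (edgeR adjusted p = 3.5e-15). PLCB4 averaged 45.9, 14.4 and 6.72 CPM. PRKCA was the riser at day 5, with 87.4, 147 and 199 CPM.

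Receptors that couple to these G proteins moved widely. Of 32 receptors known from fibroblasts, 28 were tested, and 19 rose and 5 fell between day 2 and day 0 (median log2 fold change 0.40), or 12 and 6 with library totals as the scale. At day 5 against day 0, 9 rose and 15 fell (median -0.61). A variation of at least 20% left 7 higher and 3 lower for day 2 and 8 higher and 14 lower for day 5, each against day 0. The endothelin receptor EDNRA averaged 8.22, 12.8 and 287 CPM at days 0, 2 and 5, while EDNRB averaged 7.32, 169 and 183 CPM. BDKRB2, a Gq-coupled bradykinin receptor, averaged 263, 1220 and 868 CPM. SSTR2, a Gi-coupled somatostatin receptor, averaged 0.462, 1.23 and 568 CPM.

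The arrestin genes, whose classical members uncouple receptors from G proteins, were all 6 tested, with 3 rising and 1 falling between day 2 and day 0 (median log2 fold change 0.71) and 2 rising and 2 falling between day 5 and day 0 (median -0.09), or 2 rising and 1 falling with a variation of at least 20%. ARRDC4 peaked at day 2 as RGS2 did, with 40.0, 98.4 and 7.05 CPM at days 0, 2 and 5, and ARRDC3 averaged 12.7, 40.8 and 113 CPM. Both are alpha-arrestins.

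**Figure D4:**
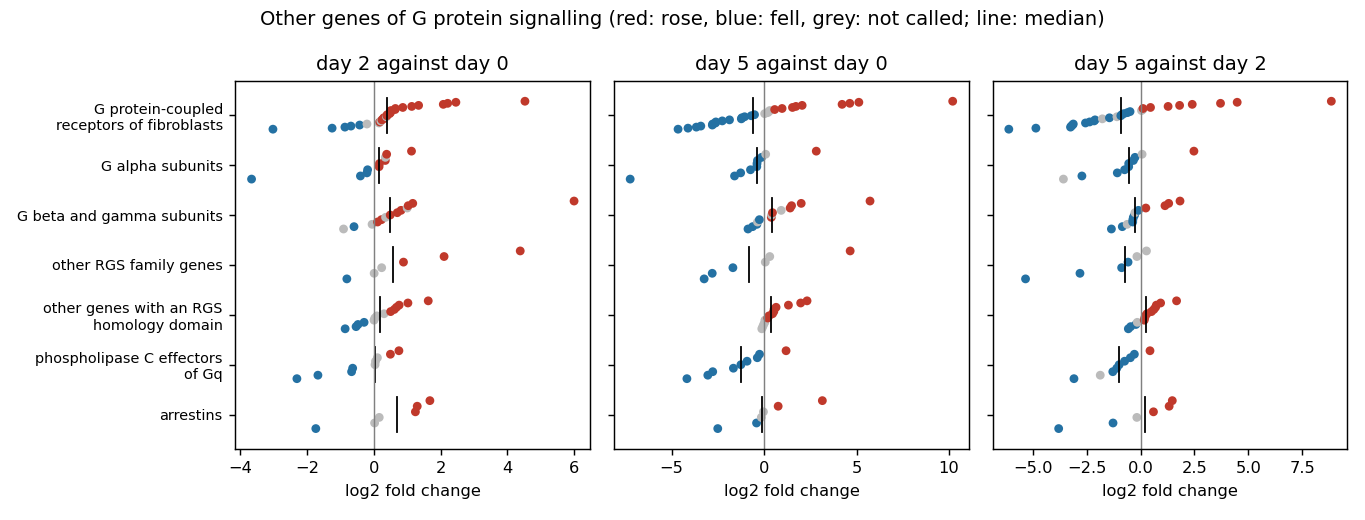
Log2 fold change of each tested gene in 7 lists of G protein signalling genes, for day 2 against day 0, day 5 against day 0 and day 5 against day 2, on axes that differ between panels. Points are genes (red rose, blue fell, grey not called), lines are list medians, and fitted values of genes without counts on a day, such as GNAZ, depend on the prior count. The Gq effectors have 1 gene higher and 8 lower between day 5 and day 0, and the G alpha subunits likewise have 1 higher and 8 lower.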

How the data were processed

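RNA was sequenced in 6 libraries of BJ cells (TRIzol extraction, DNase treatment, Illumina TruSeq RNA kit, per the labels' protocols). The deposited values are expected counts per gene, not scaled between libraries, per the file headers and the values. Reads were assigned on GRCh38 according to the submitters' processing notes, while the sources used here give no aligner, counting tool or strand setting. No definition is stated for the gene length in the table, and its day means were not used.

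Counts were rounded (87.2% were already whole), and 172 unnamed genes (0.0356 to 0.0475% of the counts of a library) were left out. Where a symbol had more than 1 gene, lists used the gene with the highest mean count. All 6 libraries entered 1 edgeR 4.0.16 fit (R 4.3.3) with TMM factors, filterByExpr (minimum count 10, minimum total 15) and 3 residual degrees of freedom. SE is the size of a log2 fold change over the square root of F, and the common biological variation was 3.33%. The procedure was tested on simulated data in which only a small part of the genes changed, so that test does not cover data with as many calls as these. P-values are two-sided. Libraries of a day differed beyond counting noise and were kept apart. Alternatives were RLE factors, library totals, omission of IGFBP5, DESeq2 1.42.0, voom in limma 3.58.1, other count filters, 2 groups only, unrounded counts, a replicate block, a 2-fold test, a variation of at least 20%, and each library left out. Gene positions are GENCODE v29's. Detection counts use a floor of 3 counts.

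The members, the gene lists and the tests were chosen with earlier results of these data known. Named genes are all members, up to 2 called genes with the lowest adjusted p per list and comparison (mean of at least 5 CPM), 6 identity markers, and the 3 genes nearest in pattern to each of 4 members. Genes beside the members were named by position. Of 8 endothelial markers, 4 (CDH5, EMCN, ERG and PECAM1) stayed under 1 CPM. KDR averaged 4.15, 8.20 and 61.7 CPM at days 0, 2 and 5, CLDN5 0.123, 1.76 and 8.05 CPM and TEK 70.4, 78.0 and 74.4 CPM. VWF averaged 1.62, 0.828 and 0.831 CPM and was not called in any comparison. Of 8 keratinocyte markers, 6 stayed under 1 CPM, and KRT5, KRT14, KRT1 and TP63 had no counts. KRT10 averaged 17.5, 18.5 and 36.2 CPM and DSP 5.66, 9.01 and 3.52 CPM. Between day 5 and day 0, KRT10 was called higher and DSP lower, the latter a call lost with a variation of at least 20%. Marker genes beyond the 6 were named after their values were seen.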

Additional observations from a re-analysis of the deposited data

How the results depend on the processing

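Of 481 single values of members recomputed, 458 kept direction and call. The count of members lower at day 2 against day 0, 1 as reported, was 2 with RLE factors, without IGFBP5, with limma-voom, with no count filter, with at least 1 CPM in at least 4 libraries and with only the 2 days compared, 3 with library totals, and 0 with the 2-fold test. The added calls were RGS3 and, with library totals, RGS12 as well. With 1 library left out it ran from 1 to 2, and the count of members lower at day 5 against day 0 ran from 2 to 3. That count, 3 as reported, was 1 with the 2-fold test and 1 with a variation of at least 20%. The count higher at day 5 against day 0, 5 as reported, was 3 with the 2-fold test and 4 with a variation of at least 20%. For day 5 against day 2, 3 and 4 as reported, the 2-fold test gave 2 higher and 3 lower, and a variation of at least 20% gave 3 and 3. That test drops by construction the changes not shown to exceed 2-fold.

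A variation of at least 20% left 2812 genes higher and 2473 lower for day 2 against day 0, where 5457 and 5455 are reported. It left 3414 and 3173 for day 5 against day 0 in place of 5839 and 5566, and 2631 and 2819 for day 5 against day 2 in place of 5241 and 5505. The 2-fold test left 1141 and 904, 1591 and 1687, and 1046 and 1299 genes in these comparisons. With library totals the log2 fold change of ITPR3 for day 2 against day 0 was -0.13 and that of UBR2 for day 5 against day 0 was -0.042. For day 5 against day 0, UBR1 was at 0.015 with the stricter count filter. With 1 library left out, UBR1 ran from -0.11 to 0.075 and METAP2 from -0.14 to 0.026 in that comparison, and the further RGS5 identifier ran from -1.42 to 0.0036 for day 2 against day 0. The cause was not tested. Replicate numbers did not pair libraries (correlations of the differences between replicates of 0.0027, -0.0024 and -0.0050 between days). With the replicate block, the comparison of day 2 with day 0 gave 5 members higher and 1 lower, that of day 5 with day 0 gave 5 and 3, and that of day 5 with day 2 gave 3 and 4, as without it. Depth limits RGS7, RGS16 and the further RGS5 identifier.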

Other observations

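RGS4, RGS5 and RGS16 proteins are known to begin, once the first methionine is removed, with a cysteine that marks them for breakdown when it is oxidised. The 7 genes of that route (aminopeptidases, the oxidase ADO, the transferase ATE1 and the UBR ligases) were all tested. Between day 2 and day 0, 5 were called higher and 1 lower (median log2 fold change 0.42). For day 5 against day 0 the counts were 4 and 1 (median 0.16), or 3 and 3 with library totals as the scale. Between day 5 and day 2, 3 were higher and 4 lower (median -0.26). With a variation of at least 20% in edgeR, 2 were called higher between day 5 and day 0, and no other call of this list was made in the 3 comparisons. ADO, which oxidises the cysteine, averaged 29.0, 37.7 and 46.8 CPM at days 0, 2 and 5, a log2 fold change of 0.69 ± 0.07 between day 5 and day 0 (edgeR adjusted p = 7.7e-08). UBR4, a ubiquitin ligase, averaged 470, 432 and 564 CPM.

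GoLoco proteins bind the same Gi alpha subunits as many RGS proteins but hold them in the GDP form. Of 9 genes in the list of GoLoco proteins and other G protein regulators, 8 were tested, with 3 rising and 3 falling between day 2 and day 0 and 3 rising and 4 falling between day 5 and day 0. A variation of at least 20% left 1 and 1 for day 2 and 3 and 3 for day 5, each against day 0. GPSM1 averaged 138, 110 and 264 CPM at days 0, 2 and 5, and RIC8A, a chaperone of alpha subunits, averaged 195, 148 and 112 CPM. GPSM3 averaged 20.4, 30.0 and 13.2 CPM and so was highest at day 2, like RGS2 and RGS10.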
